A study of Mus musculus with 6 samples.

Results

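The mitochondrial ribosomal protein genes were taken as the protein-coding genes of the deposited count table whose symbol is Mrpl or Mrps followed by a number and at most 1 letter. There were 78 of them among 55493 genes, 49 named Mrpl for the large subunit of the mitochondrial ribosome and 29 named Mrps for the small subunit. RNA sequencing measured them in microglia, which are brain-resident macrophages, after flow sorting of CD45-low CD11b-positive cells. All mice were male and carried both the transgene called ILT Telo Tg, which brings in human LILR-region genes, and 5XFAD, a transgenic model of amyloid deposition. The 3 anti-LILRB4 libraries came from mice given Fc-mutant antibody ZM3.1 against ILT3, another name for LILRB4, an inhibitory receptor of myeloid cells. The 3 control libraries came from mice given the Fc-mutant antibody 27D6, labelled Ctrl IgG2a. Both antibodies were injected intraperitoneally at 60 mg/kg once a week, 8 times, into mice that were 4 months old at the start. There was no group without amyloid or without the human transgene, so every value below compares 2 antibodies within that background. Separate animals behind the libraries are not stated in the labels, so a p-value here reflects only how far these libraries spread, and that spread may be technical.

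Mitochondria keep their own ribosomes, which translate only the membrane proteins of the respiratory chain and of ATP synthase that the mitochondrial genome encodes. The 2 ribosomal RNAs come from the mitochondrial genome, whereas every protein of the particle is encoded in the nucleus, made in the cytosol and imported. The large subunit forms peptide bonds and holds the exit tunnel, and the small subunit decodes the mRNA. Many of the proteins have bacterial homologs, and others, called mitochondria-specific here, were added during the evolution of the organelle.

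Total counts per library lay between 39805118 and 56345514. Levels are given as CPM, counts divided by the library's total, with scaling between libraries by the trimmed mean of M values. Of the microglial markers, 6 of 6 were measured and their summed level was 36417 to 36825 CPM in anti-LILRB4 libraries and 34600 to 36646 CPM in control libraries. Summed neuronal markers stayed at 0.648 to 0.923 CPM in anti-LILRB4 libraries and 0.728 to 1.22 CPM in control libraries. All 10 neutrophil markers were present, at a summed level of 135, 1130 and 219 CPM in anti-LILRB4 libraries 1, 2 and 3 and of 1339, 573 and 612 CPM in control libraries 1, 2 and 3. S100a8, a calcium-binding protein of neutrophil granulocytes, was at 57.6, 412 and 85.9 CPM in the anti-LILRB4 libraries and at 653, 250 and 284 CPM in the control libraries. Ngp, a neutrophil granule protein, was at 31.96, 382 and 52.4 CPM in the anti-LILRB4 libraries and at 265, 154 and 137 CPM in the control libraries. All 5 oligodendrocyte markers were present, and their summed level was 159 to 171 CPM in anti-LILRB4 libraries and 125 to 143 CPM in control libraries, which did not overlap. Summed B cell markers were at 91.5 to 149 CPM in anti-LILRB4 libraries and 49.0 to 142 CPM in control libraries. Monocyte markers were at 26.3 to 67.2 and 43.3 to 89.8 CPM, in the same order. Markers of border-associated macrophages were at 45.2 to 76.7 and 38.0 to 52.5 CPM. In these 3 lists the groups overlapped. The part of RNA from oligodendrocytes and these other cells in the results below was not tested. In bulk RNA, fewer cells of a type and less RNA per cell cannot be told apart.

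The mitochondrial ribosomal protein genes were expressed at nearly the same level in microglia of anti-LILRB4-treated and control mice. Together they took 0.313%, 0.287% and 0.322% of all counts in anti-LILRB4 libraries 1, 2 and 3 and 0.341%, 0.293% and 0.293% in control libraries 1, 2 and 3. Their summed level was 3067 ± 224 CPM in anti-LILRB4 libraries and 3109 ± 316 CPM in control libraries (SD, n = 3 each). The groups overlapped, with the highest sum in control library 1 and the lowest in anti-LILRB4 library 2. Of the 78 genes, 77 passed the filter on low counts and were tested together with all 18210 expressed genes by edgeR's quasi-likelihood test.

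None of the 77 genes passed a Benjamini-Hochberg adjusted p of 0.05, a threshold that 0% of the 18210 genes passed. At an unadjusted p of 0.05, 0 of the 77 passed with edgeR and 2 with DESeq2 (Mrps11 and Mrpl1), against 8.03% of all genes with edgeR and 9.72% with DESeq2. DESeq2 called 169 genes overall at the adjusted threshold, 1.1% of those it tested, and 0 of the mitochondrial ribosomal protein genes. In the authors' deposited table, 77 of the genes were listed and 0 had an adjusted p under 0.05, against 0.981% of its genes. That table's unadjusted p was under 0.05 for Mrps11, Mrps2 and Mrpl1, against 8.64% of its genes, and its smallest adjusted p among the 77 was 0.406.

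Log2 fold changes, anti-LILRB4 over control, had a median of -0.02 over the 77 genes, beside -0.01 over all tested genes and 0.02 over tested protein-coding genes. They ran from -0.32 to 0.39, 37 above 0 and 40 below. The 95% confidence interval lay within 1 log2 unit of 0 for 76 of the 77 genes and within 0.5 for 39. The exception at 1 log2 unit was Mrps34, whose interval reached 1.04. For 9 of the 77 genes (11.7%) the 2 groups of libraries did not overlap, beside 14.7% of all tested genes. They were 3 genes with all anti-LILRB4 libraries above all controls (Mrps11, Mrps2 and Mrps24) and 6 with all of them below (Mrpl1, Mrpl13, Mrpl14, Mrpl57, Mrps5 and Mrps25). Over all tested genes these shares were 6.94% above and 7.79% below.

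**Figure D1:**
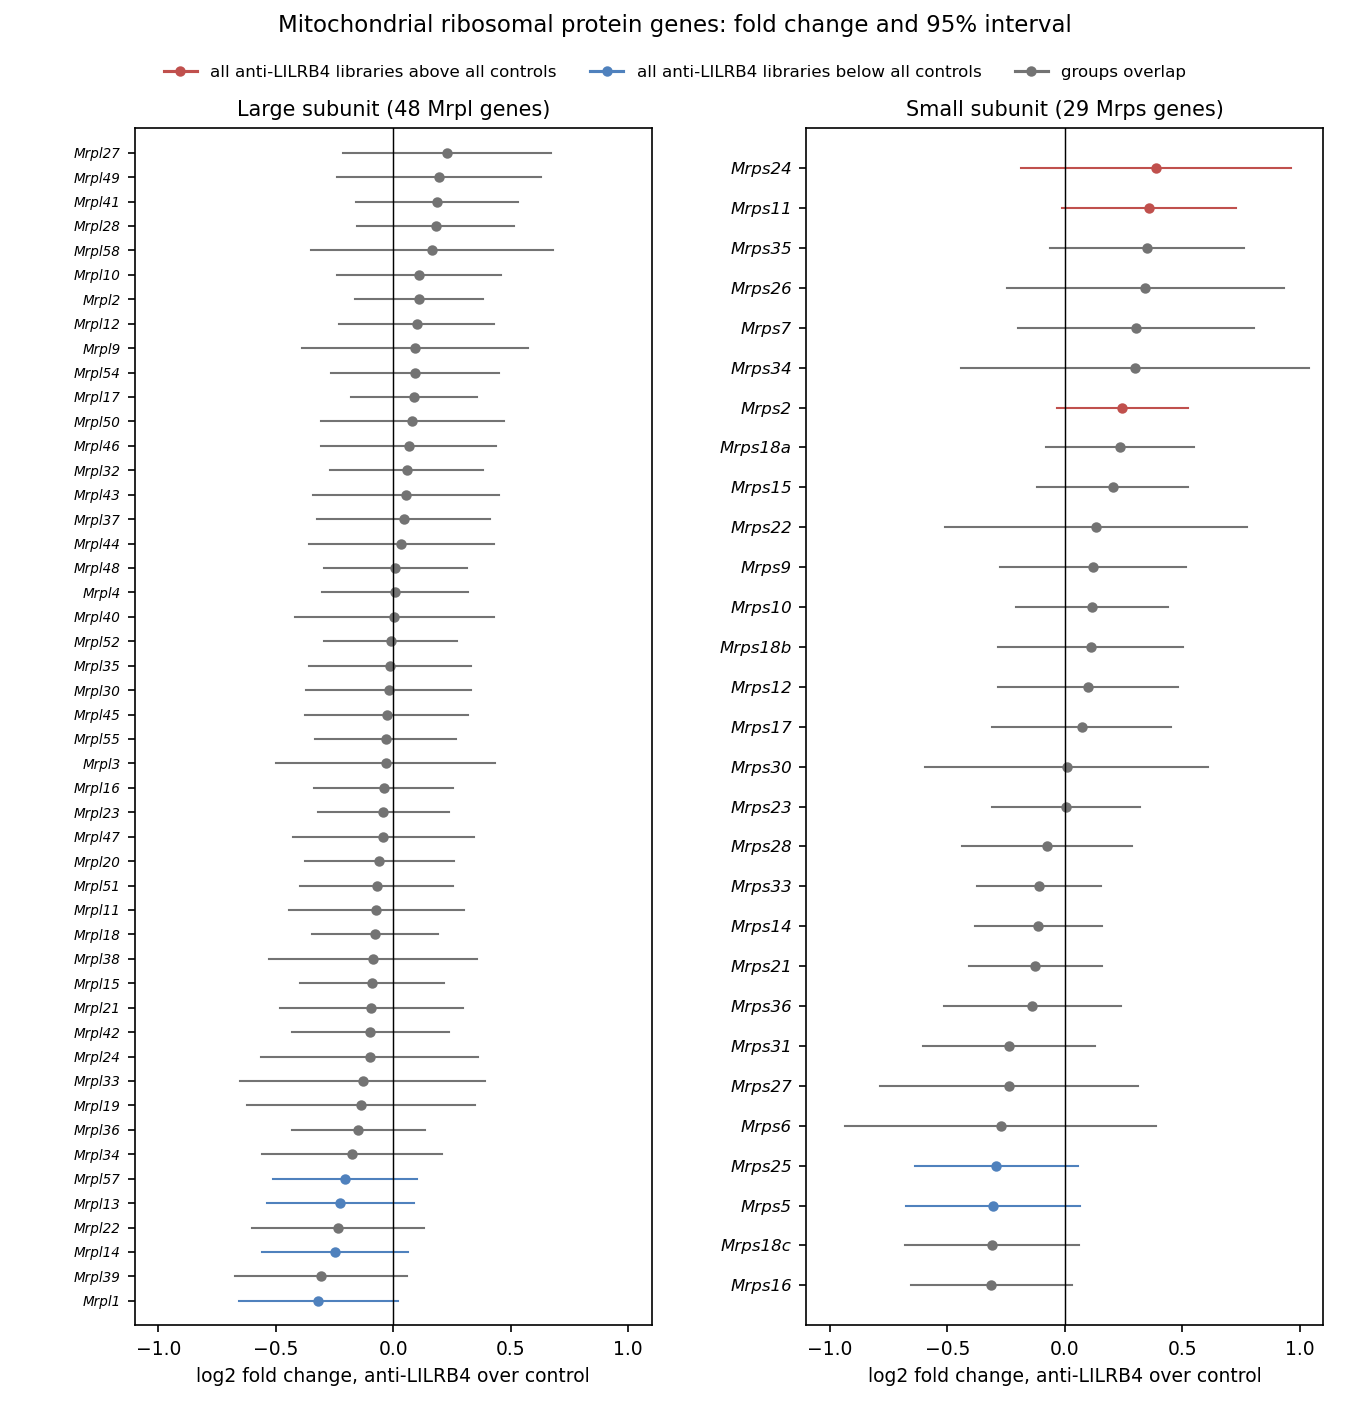
Log2 fold change of each tested Mrpl (left) and Mrps (right) gene, anti-LILRB4 over control, with its 95% confidence interval from edgeR; colour marks genes whose 3 anti-LILRB4 libraries lay all above or all below the 3 controls. The 77 estimates run from -0.32 to 0.39, and the Mrps genes spread more widely than the Mrpl genes.

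The promoters of the 4 genes with the smallest p-values are printed because these genes stand nearest to a difference and go both ways: Mrps11 and Mrps2 had positive and Mrpl1 and Mrps16 negative fold changes. Each is the RefSeq window of 250 bases before to 50 bases after the RefSeq gene start (GRCm38.p6), in the direction of the gene. RefSeq starts can differ from the GENCODE M21 starts used for gene positions in this report. The Mrpl1 window lies wholly inside the M21 gene, which starts at 96209493, so it is not the region before that start. Capitals mark CCGGAAG, the core bound by ETS factors such as GABP, and AAGATGGC, the core bound by YY1, on either strand. Both factors are known regulators of nuclear genes for mitochondrial proteins. The Mrps11 window is chr7:78782881-78783180 on the plus strand, the Mrpl1 window chr5:96209865-96210164 on the plus strand and the Mrps2 window chr2:28467816-28468115 on the plus strand. RefSeq lists 2 windows for Mrps16, of which chr14:20393441-20393740 on the minus strand is shown. The window with more matches of these letters was chosen, or the first listed if equal.
Mrps11: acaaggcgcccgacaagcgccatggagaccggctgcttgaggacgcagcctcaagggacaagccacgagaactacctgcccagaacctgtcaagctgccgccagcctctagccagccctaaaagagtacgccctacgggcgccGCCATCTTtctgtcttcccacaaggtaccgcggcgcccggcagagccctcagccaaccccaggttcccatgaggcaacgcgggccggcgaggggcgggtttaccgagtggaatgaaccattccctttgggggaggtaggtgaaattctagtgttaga
Mrps2: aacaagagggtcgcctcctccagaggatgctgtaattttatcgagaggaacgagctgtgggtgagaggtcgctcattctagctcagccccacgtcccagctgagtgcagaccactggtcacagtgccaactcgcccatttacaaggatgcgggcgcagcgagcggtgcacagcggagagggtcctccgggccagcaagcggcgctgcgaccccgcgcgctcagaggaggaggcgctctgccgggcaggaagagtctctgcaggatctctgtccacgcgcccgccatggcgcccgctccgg
Mrps16: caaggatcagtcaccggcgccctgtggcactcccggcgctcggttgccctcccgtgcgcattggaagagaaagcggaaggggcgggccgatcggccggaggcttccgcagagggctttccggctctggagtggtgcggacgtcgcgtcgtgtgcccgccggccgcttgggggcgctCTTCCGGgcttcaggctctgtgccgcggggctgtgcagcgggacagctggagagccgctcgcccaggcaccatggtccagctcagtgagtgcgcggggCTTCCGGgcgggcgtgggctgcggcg
Mrpl1: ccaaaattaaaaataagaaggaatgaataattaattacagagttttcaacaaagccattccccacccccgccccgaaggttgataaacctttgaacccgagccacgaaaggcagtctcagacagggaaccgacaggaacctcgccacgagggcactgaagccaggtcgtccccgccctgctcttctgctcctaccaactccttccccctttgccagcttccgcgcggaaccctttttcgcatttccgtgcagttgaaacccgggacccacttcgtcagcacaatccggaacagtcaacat

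Mrps11 holds 1 YY1 core, read on the reverse strand and starting 107 bases before the RefSeq gene start. The window shown for Mrps16 holds 2 ETS cores, both on the reverse strand. One starts 74 bases before and the other 24 bases after the RefSeq gene start. Mrpl1 and Mrps2 hold neither set of letters in these windows. RefSeq windows were matched for 69 of the 78 genes. For the shares below, all windows of a gene count as 1 promoter, which holds a motif if any of its windows does. Genes with several windows thus have more chances to match. The ETS core occurred in 26 of the 69 promoters (37.7%), beside 13.4% of all 16522 protein-coding promoters and 9.93% of all 27025 promoters. The YY1 core occurred in 12 promoters (17.4%), beside 3.64% of protein-coding and 3.19% of all promoters. GCATGCGC, the core bound by the respiratory-gene activator NRF1, occurred in 8 promoters (11.6%), beside 4.11% of protein-coding and 3.05% of all promoters. The GC box GGGCGG was in 49.3% of the members' promoters and 51.0% of protein-coding ones, CCAAT in 39.1% and 42.1%, and TATAAA in 7.25% and 14.3%.

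Large- and small-subunit promoters held the ETS core in 34.9% and 42.3%, the YY1 core in 13.95% and 23.1%, and the NRF1 core in 16.3% and 3.85%. In 3 of the 69 genes a single window held both the ETS and the YY1 core. Matches of different motifs shared bases within a window in 2 genes, in each an ETS core and a GC box. The median log2 fold change was -0.03 for the 25 tested genes with an ETS core and 0.00442 for the 43 without. It was 0.08 for the 12 with a YY1 core and -0.03 for the 56 without. A match is a description of letters, and these shares were not tested.

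Among large-subunit genes, fold changes lay in a narrow band. The 48 tested Mrpl genes had a median log2 fold change of -0.03, a standard deviation across genes of 0.13 and a range from -0.32 to 0.23, with 20 above 0 and 28 below. Their summed level was 2091 ± 144 CPM in anti-LILRB4 libraries and 2124 ± 232 CPM in control libraries (SD, n = 3 each). In 0 genes all anti-LILRB4 libraries lay above all controls, and in 4 below (8.33% in either direction), beside 6.94% above and 7.79% below over all tested genes.

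Mrpl1, homolog of the bacterial protein of the mobile stalk through which spent tRNA leaves the ribosome, had the lowest fold change. It was at 31.2, 28.2 and 25.3 CPM in anti-LILRB4 libraries and at 39.0, 35.2 and 31.5 CPM in control libraries. The ranges did not overlap, although anti-LILRB4 library 1 and control library 3 were within 1 CPM of each other. Its log2 fold change of -0.32 ± 0.15 (standard error) did not pass (edgeR quasi-likelihood adjusted p = 0.638). Mrpl1 lies at chr5:96209493-96266727 (GRCm38, plus strand) and shares no exonic base with another gene.

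Mrpl39, a mitochondria-specific protein of the large subunit, was at 27.1, 29.9 and 24.6 CPM in anti-LILRB4 libraries and at 39.9, 29.7 and 31.3 CPM in control libraries. Control library 1 stood above the rest, and anti-LILRB4 library 2 was level with control library 2. The log2 fold change was -0.31 ± 0.16 (standard error; edgeR adjusted p = 0.675). Mrpl14, whose bacterial homolog sits at the interface with the small subunit, was at 38.3, 36.7 and 38.2 CPM in anti-LILRB4 libraries and at 51.6, 42.6 and 40.1 CPM in control libraries. All 3 anti-LILRB4 values were below the controls, with a log2 fold change of -0.25 (edgeR adjusted p = 0.688) that was -0.13 without control library 1.

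Mrpl13, homolog of an early-assembling bacterial protein, was at 27.7, 29.7 and 31.4 CPM in anti-LILRB4 libraries and at 38.3, 33.1 and 32.3 CPM in control libraries. Mrpl57, a small mitochondria-specific protein, was at 34.4, 36.1 and 37.6 CPM in anti-LILRB4 libraries and at 47.0, 38.0 and 39.7 CPM in control libraries. Neither pair of ranges overlapped, the log2 fold changes were -0.22 and -0.21, and in both genes control library 1 stood apart from the other controls. Mrpl22, whose bacterial homolog lines the exit tunnel, was at 33.9, 30.4 and 29.3 CPM in anti-LILRB4 libraries and at 41.9, 29.3 and 39.0 CPM in control libraries. Its groups overlapped because control library 2 was as low as the lowest anti-LILRB4 library.

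**Figure D2:**
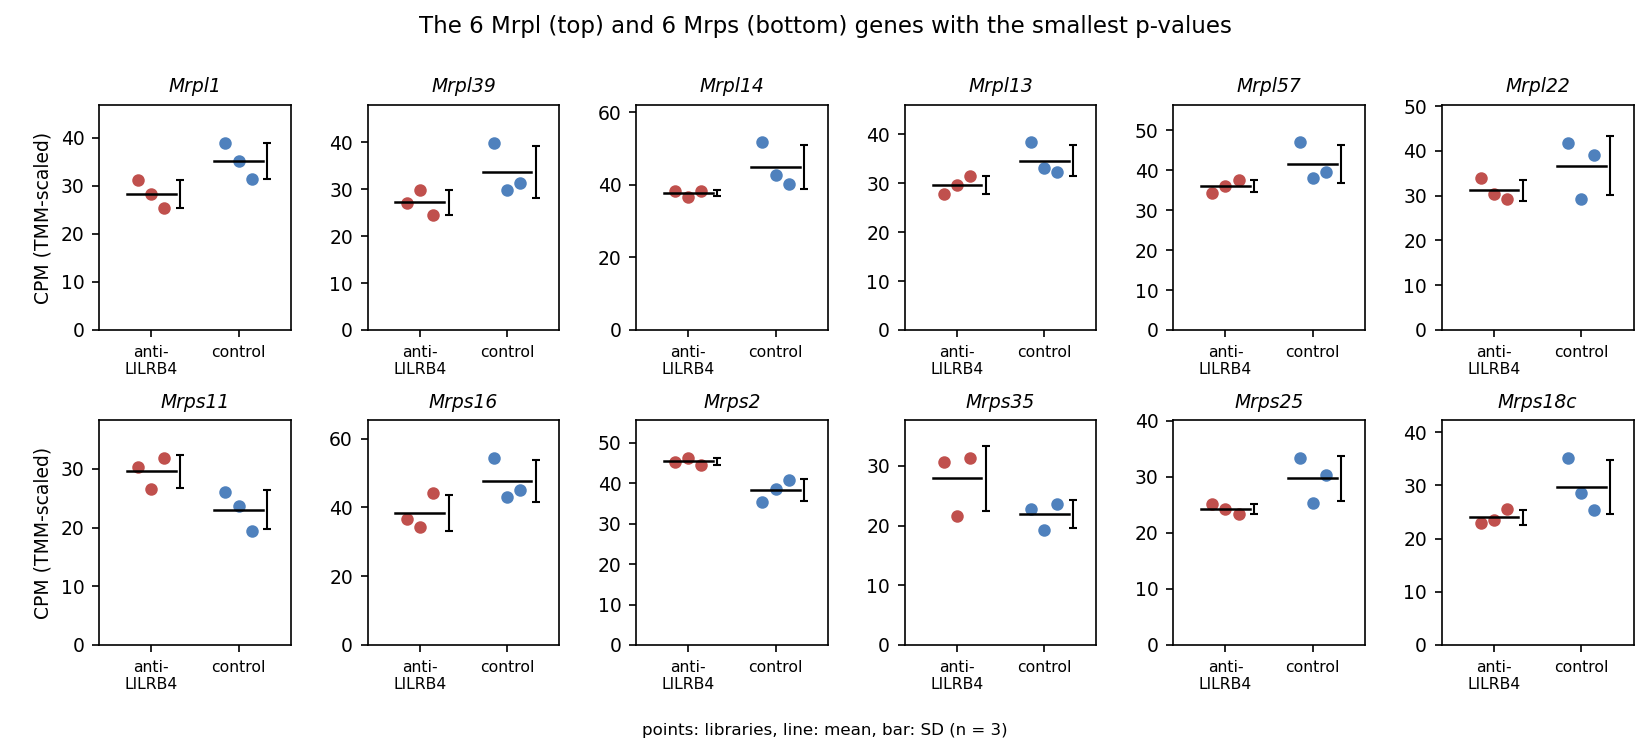
Level in CPM of the 6 Mrpl genes (top) and 6 Mrps genes (bottom) with the smallest unadjusted p-values; points are libraries, lines the mean and bars the SD (n = 3), with anti-LILRB4 left and control right and each axis starting at 0. Mrpl1, Mrpl13, Mrpl14, Mrpl57 and Mrps25 have every anti-LILRB4 library below every control, Mrps11 and Mrps2 every one above, and the adjusted p of all 12 is 0.63 or higher.

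Mrpl12 and Mrpl58 have known roles besides their structural place. Mrpl12, which recruits translation factors at the stalk and is reported to bind the mitochondrial RNA polymerase, was at 29.5, 27.2 and 25.8 CPM in anti-LILRB4 libraries and at 26.2, 23.5 and 27.4 CPM in control libraries. Mrpl58, a peptidyl-tRNA hydrolase built into the large subunit that can release stalled chains, was at 20.1, 22.7 and 34.8 CPM in anti-LILRB4 libraries and at 22.3, 19.2 and 27.6 CPM in control libraries. The groups overlapped for both, and for Mrpl58 library 3 was the highest in each group. The log2 fold changes were 0.10 and 0.16 (edgeR adjusted p = 0.898 and 0.890).

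Split by origin, the 30 tested large-subunit proteins with a bacterial homolog had a median log2 fold change of -0.04, with 9 above 0 and 21 below. The 20 tested mitochondria-specific proteins of the large subunit, counted by structure, had a median of 0.02, with 13 above 0 and 7 below. The classes follow the naming of mitochondrial ribosome structures, which counts Mrps18a as specific to mitochondria although it descends from the same ancestor as a bacterial protein. In the small subunit by structure, the 16 tested bacterial homologs had a median of 0.09, with 9 above 0 and 7 below. The 10 mitochondria-specific ones there had a median of 0.06, with 6 above 0 and 4 below. In each subunit the mean log2 levels of both classes overlapped between the groups of libraries. Differences between the classes were not tested.

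Small-subunit genes were as flat on average but differed more among themselves. The 29 Mrps genes had a median log2 fold change of 0.07, a standard deviation across genes of 0.23 and a range from -0.31 to 0.39, with 17 above 0 and 12 below. Their summed level was 976 ± 80.0 CPM in anti-LILRB4 libraries and 984 ± 84.6 CPM in control libraries (SD, n = 3 each). An absolute log2 fold change over 0.2 was found in 16 of the 29 Mrps genes and in 7 of the 48 Mrpl genes, beside 10102 of all 18210 tested genes. The standard deviation over all tested genes was 0.58, so the Mrps genes spread more than the Mrpl genes but not more than genes in general. The median standard error of the fold change was 0.17 for Mrps genes, 0.16 for Mrpl genes and 0.29 over all tested genes. All 6 genes under 10 CPM were Mrps genes, with a median of 0.22, and the 23 Mrps genes of at least 10 CPM had a median of 0.00649 and a standard deviation of 0.22. The wider spread of the Mrps genes was not tested.

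Mrps11, homolog of a bacterial protein of the small-subunit platform, had the smallest p-value of all 77 genes. It was at 30.3, 26.5 and 31.9 CPM in anti-LILRB4 libraries and at 26.0, 23.7 and 19.4 CPM in control libraries. The ranges were separate by the small gap between anti-LILRB4 library 2 and control library 1. The log2 fold change was 0.36 ± 0.17 (standard error; edgeR adjusted p = 0.630). Mrps11 lies at chr7:78783119-78792989 (plus strand) and shares 173 exonic bases with Mrpl46 on the other strand, and because the library kit does not mark strand, reads there cannot be told apart.

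Mrps2, homolog of a bacterial protein that joins the small subunit late, was at 45.1, 46.3 and 44.5 CPM in anti-LILRB4 libraries and at 35.4, 38.5 and 40.8 CPM in control libraries. The 3 anti-LILRB4 values were close together and above every control, with a log2 fold change of 0.25 ± 0.13 (standard error; edgeR adjusted p = 0.665). Mrps35, a mitochondria-specific protein, was at 30.7, 21.7 and 31.4 CPM in anti-LILRB4 libraries and at 22.7, 19.3 and 23.7 CPM in control libraries. Anti-LILRB4 library 2 lay among the controls, and the log2 fold change was 0.35 (edgeR adjusted p = 0.675).

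The other small-subunit genes with small p-values had negative fold changes. Mrps16, homolog of a bacterial protein needed for assembly of the small subunit, was at 36.5, 34.3 and 44.2 CPM in anti-LILRB4 libraries and at 54.5, 43.1 and 45.1 CPM in control libraries. Its groups overlapped in anti-LILRB4 library 3, and the log2 fold change was -0.31 (edgeR adjusted p = 0.643). Mrps25, a mitochondria-specific protein, was at 25.1, 24.3 and 23.4 CPM in anti-LILRB4 libraries and at 33.4, 25.4 and 30.3 CPM in control libraries, with a gap of under 1 CPM between the groups. Its log2 fold change was -0.29 (edgeR adjusted p = 0.676), and 69.8% of its exonic bases are shared with Nr2c2 on the opposite strand.

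Outside the 6 smallest p-values, Mrps24 was at 6.01, 5.47 and 6.07 CPM in anti-LILRB4 libraries and at 5.38, 4.07 and 3.96 CPM in control libraries. Mrps5, homolog of a bacterial protein at the mRNA entry, was at 19.7, 20.1 and 19.5 CPM in anti-LILRB4 libraries and at 25.1, 20.5 and 27.7 CPM in control libraries. These are the other 2 small-subunit genes whose groups did not overlap, named after their values were seen, with log2 fold changes of 0.39 and -0.30 (edgeR adjusted p = 0.750 and 0.678).

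Mammals have 3 homologs of a single bacterial small-subunit protein, Mrps18a, Mrps18b and Mrps18c, and each ribosome carries them at different sites. Mrps18c was at 22.9, 23.5 and 25.6 CPM in anti-LILRB4 libraries and at 35.2, 28.6 and 25.3 CPM in control libraries. Mrps18b was at 17.8, 17.1 and 17.8 CPM in anti-LILRB4 libraries and at 18.3, 13.7 and 16.8 CPM in control libraries. Mrps18a, which structures place in the large subunit despite its name, was at 60.5, 54.6 and 67.3 CPM in anti-LILRB4 libraries and at 56.8, 44.6 and 53.5 CPM in control libraries. All 3 pairs of ranges overlapped, and the log2 fold changes were -0.31 for Mrps18c, 0.11 for Mrps18b and 0.23 for Mrps18a (edgeR adjusted p = 0.677, 0.908 and 0.717). Leaving out single libraries gave -0.41 to -0.17 for Mrps18c, 0.00878 to 0.20 for Mrps18b and 0.15 to 0.32 for Mrps18a. The extremes of Mrps18c came without control libraries 3 and 1, those of Mrps18b without control libraries 2 and 1, and those of Mrps18a without control library 2 and anti-LILRB4 library 2. Whether the 3 paralogs differ from each other was not tested.

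Mrps30, also found in the large subunit in structures, was at 8.56, 5.31 and 6.07 CPM in anti-LILRB4 libraries and at 7.75, 5.53 and 6.53 CPM in control libraries. Mrps36, now known as a subunit of the 2-oxoglutarate dehydrogenase complex and not of the ribosome, was at 30.1, 27.4 and 33.8 CPM in anti-LILRB4 libraries and at 40.7, 30.1 and 29.7 CPM in control libraries. Both overlapped between groups, with log2 fold changes of 0.00784 and -0.14. Moving Mrps30 and Mrps18a to the large subunit and leaving out Mrps36 gave medians of -0.02 for 50 large-subunit and 0.09 for 26 small-subunit genes.

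Library by library, the 2 subunits had similar levels. The mean log2 level of the 48 Mrpl genes, relative to the control mean, was -0.02, -0.11 and 0.06 in anti-LILRB4 libraries 1, 2 and 3 and 0.19, -0.10 and -0.09 in control libraries 1, 2 and 3. For the 29 Mrps genes it was 0.07, -0.09 and 0.12 in anti-LILRB4 libraries and 0.12, -0.10 and -0.02 in control libraries. Control library 1 held the highest value of 43 of the 77 genes, and the lowest values were mostly in anti-LILRB4 library 2, with 27 genes, and control library 2, with 21. The groups overlapped for both subunits, and the spread between libraries of the same group exceeded the difference of the group means.

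The difference between the subunits, large minus small, was -0.09, -0.01 and -0.06 in anti-LILRB4 libraries and 0.07, -0.01 and -0.06 in control libraries. The groups overlapped, and control library 1 alone stood above 0. In the fit, the median log2 fold change of Mrpl genes minus that of Mrps genes was -0.10. Without anti-LILRB4 library 1 it was -0.03, without anti-LILRB4 library 3 it was 0.00795 and without control library 1 it was 0.037, so its sign rested on single libraries. The median of the Mrps genes alone was -0.07 without anti-LILRB4 library 3.

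The ribosomal RNAs that these proteins assemble with were lower in every anti-LILRB4 library than in any control. mt-Rnr2, the RNA of the large subunit, was at 13537, 10774 and 12176 CPM in anti-LILRB4 libraries and at 22446, 17578 and 16498 CPM in control libraries, a log2 fold change of -0.63 ± 0.12 (standard error). mt-Rnr1, the RNA of the small subunit, was at 1421, 1102 and 1222 CPM in anti-LILRB4 libraries and at 2234, 1738 and 1718 CPM in control libraries, a log2 fold change of -0.60 ± 0.13. Neither passed after adjustment over all genes (edgeR adjusted p = 0.386 and 0.420). The mean log2 level of the 2 rRNAs minus that of the 77 protein genes was -0.45, -0.68 and -0.70 in anti-LILRB4 libraries and 0.10, -0.00198 and -0.09 in control libraries. These ranges did not overlap, and no test was made of that difference. Nuclear copies of mitochondrial sequence can share reads with both rRNA genes, so their counts are uncertain to that extent.

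Of the 13 proteins encoded in the mitochondrial genome, which are what this ribosome makes, 0 passed the adjusted threshold, and 8 had a lower level at an unadjusted p of 0.05 and 0 a higher one, beside 3.91% and 4.12% of all tested genes. Their median log2 fold change was -0.42, with mt-Cytb, the cytochrome b subunit, at -0.42 and mt-Nd1, a complex I subunit, at -0.35. Fold changes were below 0 in 11 of the 13 and above 0 in 2, mt-Nd5 at 0.04 and mt-Nd6 at 0.06, whose groups overlapped. The summed neutrophil markers were low in anti-LILRB4 libraries 1 and 3 and highest in control library 1 and anti-LILRB4 library 2. The mitochondrial rRNAs were also highest in control library 1 but were lowest in anti-LILRB4 library 2, the anti-LILRB4 library with the most neutrophil RNA. The part of neutrophil RNA in these levels was not tested.

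**Figure D3:**
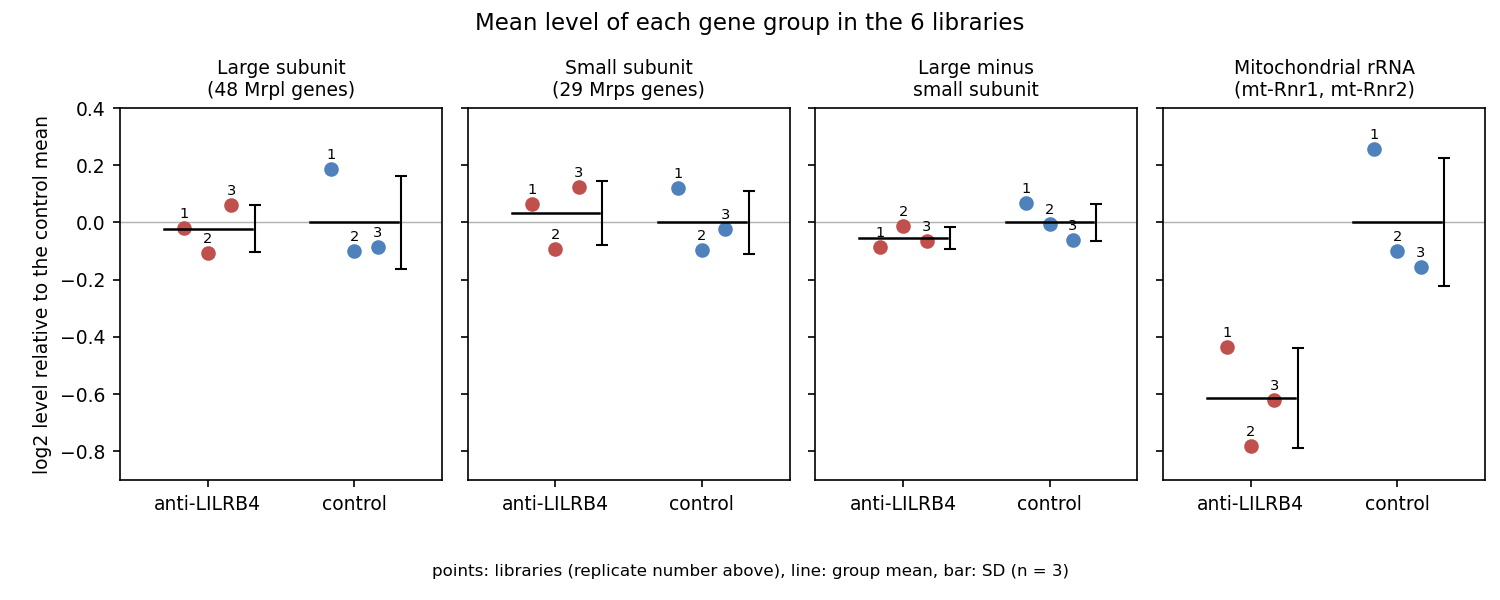
Mean log2 level of the Mrpl genes, the Mrps genes, their difference and the 2 mitochondrial rRNAs in each library relative to the control mean, with the line at the group mean and the bar at the SD (n = 3), anti-LILRB4 left and control right. The protein genes of both subunits overlap between groups, whereas the rRNAs lie at -0.43 to -0.78 in anti-LILRB4 libraries and at -0.16 to 0.26 in controls.

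Within microglia the protein genes differed widely in level, although each protein is present once per subunit in most cases. Per kilobase of the principal transcript, mean levels over the 6 libraries ran from 1.15 for Mrps26 to 278 for Mrpl52, a ratio of 243. The median was 24.7 CPM per kb over 48 Mrpl genes and 16.7 over 29 Mrps genes. These values divide counts of the whole gene by the length of 1 transcript, the longest principal one. A gene that uses a shorter or longer transcript is therefore set too low or too high. That length was 418 bases for Mrpl52 and 4278 bases for Mrps26. Without division by length, mean levels of the 77 genes ran from 4.74 to 171 CPM, a narrower range.

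Mrpl52, a mitochondria-specific protein, was highest, at 277 ± 16.8 CPM per kb in anti-LILRB4 libraries and 279 ± 37.6 in control libraries (SD, n = 3 each). Mrpl42, also mitochondria-specific, followed at 142 ± 24.5 in anti-LILRB4 libraries and 152 ± 17.5 in control libraries. The libraries of Mrpl52 lay above all those of Mrpl42. Mrps21, homolog of a bacterial small-subunit protein, was at 120 ± 7.31 in anti-LILRB4 libraries and 131 ± 13.7 in control libraries, a range that overlapped that of Mrpl42. Mrps33, mitochondria-specific, was next among the small-subunit genes at 66.0 ± 6.26 CPM per kb in anti-LILRB4 libraries and 71.2 ± 2.43 in control libraries.

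At the low end, Mrps26, a mitochondria-specific protein, was at 1.28 ± 0.20 CPM per kb in anti-LILRB4 libraries and 1.01 ± 0.12 in control libraries. Mrps30 was at 2.002 ± 0.51 in anti-LILRB4 libraries and 1.99 ± 0.34 in control libraries, above every library of Mrps26. Mrpl3, whose bacterial homolog lies near the peptidyl transferase centre, was the lowest large-subunit gene at 2.94 ± 0.45 CPM per kb in anti-LILRB4 libraries and 3.00 ± 0.42 in control libraries. Mrpl19, whose bacterial homolog helps bridge the subunits, was at 4.43 ± 0.25 in anti-LILRB4 libraries and 4.87 ± 1.46 in control libraries, a range that overlapped that of Mrpl3. Mrpl19 shares 36.0% of its exonic bases with Gcfc2 on the opposite strand. How reads there were counted is not given in the sources used here, so its level is uncertain. The log2 fold changes of these 8 genes lay between -0.14 for Mrpl19 and 0.34 for Mrps26.

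**Figure D4:**
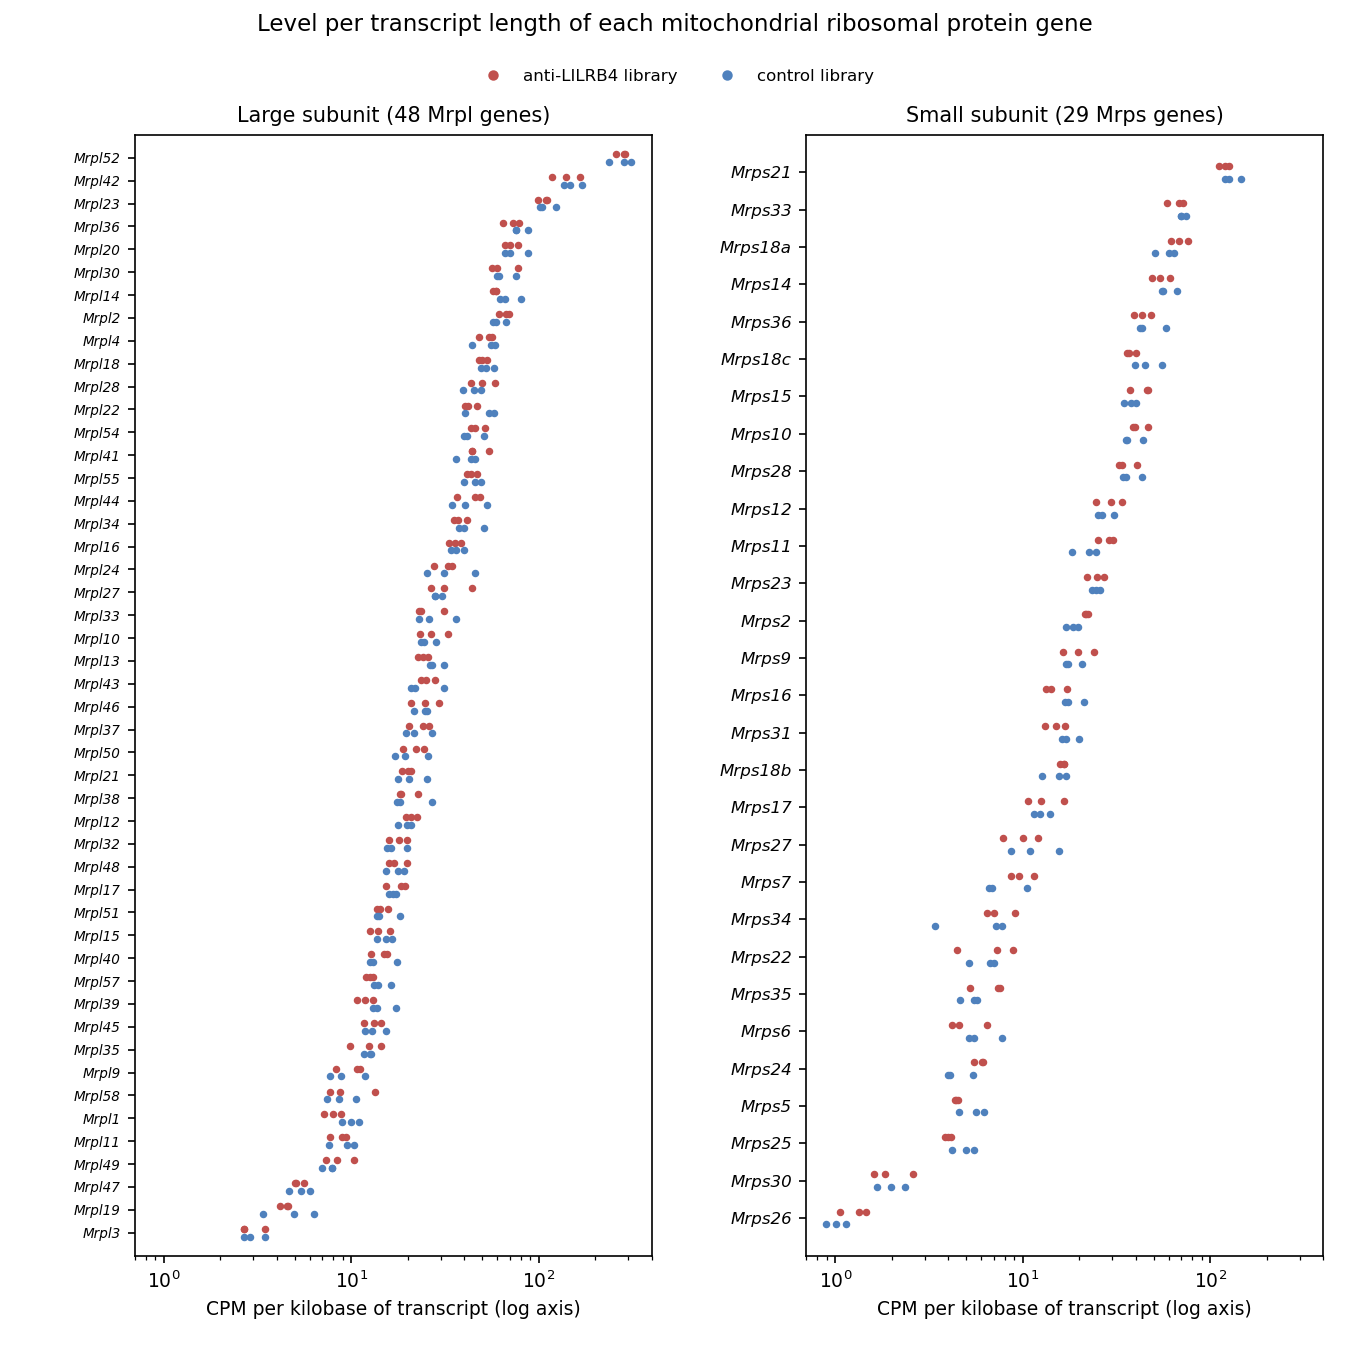
Level per transcript length (CPM per kilobase, log axis) of each tested Mrpl (left) and Mrps (right) gene in the 3 anti-LILRB4 and 3 control libraries, ordered by mean level. Levels run from 1.15 for Mrps26 to 278 for Mrpl52, and the libraries of 1 gene lie close together on this scale in both groups.

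Mrpl53, a large-subunit gene at chr6:83109040-83109939 (plus strand), had 0 counts in all 6 libraries and was not tested. The limit that a count of 0 allows, 3 counts, corresponds to 0.053 to 0.074 CPM in a library, for counting error only. Of its 790 exonic bases, 695 (88.0%) are shared with Gm42688, a gene annotated on the same strand, which itself had 9, 1 and 0 counts in anti-LILRB4 libraries and 0, 5 and 0 in control libraries. How the authors' counting treated reads that match both genes is not given in the sources used here, so the count of 0 is no measure of the level of Mrpl53.

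Exonic bases of 33 of the 78 genes overlap another annotated gene, in 8 of them a gene on the same strand. The 32 tested genes with an overlap had a median log2 fold change of 0.00841 and the 45 without of -0.02. Mrps34, a mitochondria-specific protein of the small subunit, shares 77.8% of its exonic bases with Mapk8ip3 and Nme3 and varied most within groups. It was at 8.31, 6.45 and 5.90 CPM in anti-LILRB4 libraries and at 3.12, 7.09 and 6.58 CPM in control libraries, the low value being that of control library 1, in which most of the other genes were highest. Its log2 fold change was 0.30 and, without that library, 0.011.

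Many of the genes start near a neighbour on the opposite strand, in some cases with overlapping starts. Whether such neighbours share a promoter was not tested. A protein-coding gene on the opposite strand starts within 1000 bases of the start of 33 of the 78 genes (42.3%), beside 2074 of 12244 tested protein-coding genes (16.9%). In 1 case both are mitochondrial ribosomal protein genes: Mrpl46, at chr7:78775236-78783531 (minus strand), and Mrps11 start 412 bases apart and overlap. Mrpl46, a mitochondria-specific large-subunit protein, was at 27.97, 23.7 and 33.1 CPM in anti-LILRB4 libraries and at 28.6, 24.4 and 27.9 CPM in control libraries. Its groups overlapped, with a log2 fold change of 0.07 beside 0.36 for Mrps11, and the difference between the 2 genes was not tested.

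Among the 29 tested partners that are not themselves members of the family, 5 had an unadjusted p under 0.05, beside 8.03% of all tested genes, and 0 passed the adjusted threshold. Of the members, 31 had a tested partner, and in 24 of these the member and its partner had fold changes of the same sign. Mrpl46 and Mrps11 are each other's partner, so that pair is counted for each of them. The share among other neighbouring genes was not calculated. Some partners share exonic bases, and the count was not tested. The 5 partners are named after their values were seen. Sars2, the mitochondrial seryl-tRNA synthetase, was at 7.38, 10.5 and 8.11 CPM in anti-LILRB4 libraries and at 2.03, 5.23 and 3.16 CPM in control libraries, and its groups did not overlap. Its neighbour Mrps12, homolog of a bacterial protein at the decoding centre, was at 26.2, 21.7 and 29.9 CPM in anti-LILRB4 libraries and at 27.0, 23.3 and 22.3 CPM in control libraries, which overlapped. Log2 fold changes were 1.32 for Sars2 beside 0.10 for Mrps12, 1.38 for Eme2 beside 0.30 for Mrps34, 0.75 for Helq beside -0.31 for Mrps18c, and 2.51 for Ska3 beside -0.21 for Mrpl57. Ptcd2, a mitochondrial RNA-binding protein, was at -0.32 beside -0.24 for Mrps27. Ska3 was under 2 CPM in every library, and no difference between partners was tested.

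Of the other genes of the mitochondrial translation system, 0 passed the adjusted threshold. Of 5 further ribosomal proteins with other names, 0 had an unadjusted p under 0.05 in either direction, beside 8.03% of all tested genes, and the median log2 fold change was -0.13. Dap3, a GTP-binding protein of the small subunit, was at 17.8, 18.9 and 27.6 CPM in anti-LILRB4 libraries and at 13.4, 20.5 and 11.7 CPM in control libraries. Ptcd3, also of the small subunit, had a log2 fold change of -0.16, beside 0.50 for Dap3, and both overlapped between groups.

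Of 21 assembly factors, 0 had a higher level and 1 a lower level at an unadjusted p of 0.05, beside 4.12% and 3.91% of all tested genes. It was Mettl17, a factor for small-subunit assembly, at 19.99, 16.96 and 15.7 CPM in anti-LILRB4 libraries and at 30.6, 20.9 and 22.5 CPM in control libraries (log2 fold change -0.49; edgeR adjusted p = 0.570). Gtpbp10, a GTPase for large-subunit assembly, had a log2 fold change of -0.32. Of 14 tested translation factors, 0 passed that p in either direction, beside 8.03% of all tested genes, and the smallest p-values were those of Oxa1l, which inserts new chains into the inner membrane, at a log2 fold change of 0.24, and Guf1, an elongation factor, at -0.45.

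Of 20 mitochondrial aminoacyl-tRNA synthetases and related enzymes, 4 had a higher level and 0 a lower level at an unadjusted p of 0.05, although the median log2 fold change was -0.11. Over all tested genes those shares were 4.12% and 3.91%. Wars2, the mitochondrial tryptophanyl-tRNA synthetase, was at 13.9, 10.4 and 11.3 CPM in anti-LILRB4 libraries and at 4.93, 5.28 and 6.94 CPM in control libraries (log2 fold change 1.05 ± 0.24, standard error; edgeR adjusted p = 0.426). The others were Sars2, already given, and Gatb and Gatc, subunits of the enzyme that makes glutaminyl-tRNA, at log2 fold changes of 0.38 and 0.42. In all 4 the anti-LILRB4 libraries lay above the controls. In Mars2, the mitochondrial methionyl-tRNA synthetase, they lay below, at 13.2, 8.24 and 12.9 CPM in anti-LILRB4 libraries and at 17.6, 14.5 and 15.9 CPM in control libraries (log2 fold change -0.48; edgeR adjusted p = 0.632). Mars2 was named after its values were seen.

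Of 24 tested genes for mitochondrial transcription and RNA processing, 0 had a higher level and 2 a lower level at an unadjusted p of 0.05, beside 4.12% and 3.91% of all tested genes: Ptcd2 at a log2 fold change of -0.32 and Prorp, the nuclease of mitochondrial RNase P, at -0.45. Among 9 tested regulators of mitochondrial biogenesis, Ppargc1b, a coactivator of mitochondrial gene expression, was at 3.08, 5.27 and 4.78 CPM in anti-LILRB4 libraries and at 1.40, 2.85 and 0.706 CPM in control libraries. Myc, a growth-related transcription factor, was at 34.8, 50.3 and 46.0 CPM in anti-LILRB4 libraries and at 48.7, 65.0 and 58.5 CPM in control libraries. The log2 fold changes were 1.41 and -0.39, and neither passed (edgeR adjusted p = 0.523 and 0.612).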

How the data were processed

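RNA was sequenced from sorted microglia in 3 anti-LILRB4 and 3 control libraries, grouped by their labels. A low-input kit that keeps no strand information made the cDNA from total RNA, per the labels' protocols. The deposited table holds raw read counts per gene. Tools named in the submitters' processing notes, without roles, are DESeq2 1.38.3, Salmon, STAR and Subread's featureCounts. The sources used here do not give the genome build or annotation. A comparison table deposited by the authors holds, per the file headers, a mean normalized count (a signal), a log2 fold change with its error, a score (their ratio), and p-values and adjusted p-values.

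Of 55780 table lines, 287 were exact repeats of another line's identifier and counts and were removed. In R 4.3.3, edgeR 4.0.16 (filterByExpr with a minimum count of 10, trimmed mean of M values, quasi-likelihood F test of treatment without covariates) tested 18210 genes, with Benjamini-Hochberg adjustment over all of them at 0.05. A standard error is the log2 fold change over the square root of F. Log2 levels use a prior count of 2. Alternatives used DESeq2 1.42.0 and limma 3.58.1. The edgeR test, but not DESeq2 or limma, was checked on simulated counts. It recovered 52% of 100 genes changed by 1 log2 unit and 83% of 100 genes changed by 2. False calls were 8 in that simulation and 0 when no gene was changed. Intervals cover 95% confidence. All 15 pairs of libraries differed by more than sampling noise.

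Positions, exonic overlaps and principal transcript lengths come from GENCODE M21 (GRCm38) through the Ensembl identifiers. Gene starts in the authors' table matched that annotation in 499 of 24810 genes, so the authors' own coordinates are not printed. Promoters are from RefSeq (GRCm38.p6). Python 3.11.15 with matplotlib 3.10.9 drew the figures.

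The genes and lists were chosen with earlier results of these data known. Named with values were the 6 Mrpl and 6 Mrps genes with the smallest unadjusted p, the 2 highest and 2 lowest of each subunit per length, 7 genes for their known place (Mrps30, Mrps18a, Mrps18b, Mrps18c, Mrps36, Mrpl12 and Mrpl58), every gene not tested, the 2 smallest p of each pathway list, both rRNAs and the 2 most abundant neutrophil markers. Mrps24, Mrps5, Mrps34, Mrps12, Mrps27, Mrpl46, Mars2, Gatb, Gatc, Eme2, Helq, Ska3, mt-Nd5 and mt-Nd6 were added after their values were seen.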

Additional observations from a re-analysis of the deposited data

How the results depend on the processing

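In none of 17 settings was a mitochondrial ribosomal protein gene called, and the smallest adjusted p in any of them was 0.402. At an adjusted p of 0.1, 0 were called. Over all genes 0 were called, but 169 with DESeq2 and 300 without the filter on low counts. The number of members with an unadjusted p under 0.05 was 0, but 1 with library size only, 1 with upper quartile scaling, 2 with DESeq2, 1 with no filter, 1 with protein-coding genes only and 1 with a replicate block, and 0 to 3 when each library was left out in turn. Leaving out each library moved the median log2 fold change between -0.08 and 0.08 over all members, between -0.09 and 0.08 for the large subunit and between -0.070 and 0.15 for the small subunit. The large minus small difference moved between -0.14 and 0.037. The other settings kept these 4 medians on their side of 0.

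A check of replicate numbers showed no pairing of the libraries, but with 3 libraries a group it cannot decide whether some share a batch. The correlation of deviations between same-numbered libraries lay between -0.0138 and 0.029, and 2 of 6 libraries correlated best with their own number. With the replicate block, 1 member had an unadjusted p under 0.05 and 0 genes were called.

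Of 465 recalculated fold changes of 31 named members, 6 of them named after their values were seen, 444 kept their sign and 21, spread over 10 members, did not. Mrpl52 was at 0.0032 with library size only. Mrps30 was at -0.020 with upper quartile scaling, -0.026 with limma voom, -0.012 with protein-coding genes only and -0.00677 with the replicate block. Leaving out single libraries gave -0.34 to 0.10 for Mrpl19, -0.16 to 0.084 for Mrpl3, -0.23 to 0.022 for Mrpl42, -0.11 to 0.077 for Mrpl52, -0.11 to 0.32 for Mrpl58, -0.21 to 0.16 for Mrps30, -0.22 to 0.024 for Mrps36, -0.016 to 0.22 for Mrps12, -0.41 to 0.025 for Mrps27 and -0.063 to 0.19 for Mrpl46. The cause was not tested. A correction for gene length, leaving the mitochondrial genes out of library sizes and leaving out genes with exonic overlap were chosen after seeing the data. With 3 libraries a group, an exact permutation test of 1 value cannot go below 0.1.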

Other observations

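Processed pseudogenes of the family also received counts. Mrpl23-ps1 had 570, 596 and 484 counts in anti-LILRB4 libraries and 596, 453 and 477 in control libraries, and Mrpl48-ps had 99, 106 and 75 in anti-LILRB4 libraries and 118, 76 and 90 in control libraries. Mrps36-ps1 had 105, 139 and 52 counts in anti-LILRB4 libraries and 93, 88 and 93 in control libraries. Mrps36-ps2 had 36, 54 and 34 counts in anti-LILRB4 libraries and 55, 34 and 24 in control libraries. Mrps36-ps3 had 0 counts in every library. Mrpl27-ps had 62, 54 and 73 counts in anti-LILRB4 libraries and 52, 56 and 27 in control libraries. How reads that match both a gene and its pseudogene were counted is not given in the sources used here, so the split between Mrpl23, Mrpl27, Mrpl48, Mrps36 and these copies is uncertain.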
